A study of Mus musculus with 6 samples.

Results

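Phgdh and Psat1 encode the enzymes that catalyse the first and the second step of serine synthesis from glucose, and their transcript levels were examined in the forearm bones of newborn mice. They are 2 of the 5780 genes that could be named on the arrays, and each was read by 1 probe set carrying its symbol and no other, among 8997 probe sets in all. RNA came from the radii and ulnae of newborn 129sv mice carrying the del175k mutation of Tnni2 and of their wild-type littermates, with 3 arrays per genotype. Tnni2 encodes the fast skeletal muscle form of troponin I. The labels speak of 3 pairs of mutants and littermates without saying which arrays form a pair. They give neither the zygosity nor the sex of the animals, and do not say whether an array held the bones of 1 mouse or of several, so the spread between arrays may be partly technical. Both genes were selected on their measured values in the same contrast, because each was lower on every mutant array than on any wild-type array. Their own differences are therefore given as a description, without a test.

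Serine is made from phosphoglycerate, an intermediate of glycolysis. Phgdh, phosphoglycerate dehydrogenase, oxidises it with NAD, Psat1, phosphoserine aminotransferase, moves an amino group onto the product from glutamate, and Psph, phosphoserine phosphatase, releases serine. Serine then supplies glycine and folate-bound carbon units for purine, thymidylate and methionine synthesis, and glycine is the most frequent residue of collagen, the main protein of bone and cartilage matrix. The transcription factor Atf4, which also supports amino acid import in mouse osteoblasts, is a known activator of both genes. In humans, inherited loss of the pathway causes serine deficiency disorders, of which the most severe, Neu-Laxova syndrome, includes joint contractures. Psph had no probe set of its own in the table and was not analysed here.

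The upstream regions of the genes are shown as a description. Both genes were low on all mutant arrays by the way they were chosen, and shared regulation was not tested. They are RefSeq sequences of build GRCm38.p6, from 250 bases before the annotated start to 50 bases after it, all on the minus strand and printed 5′ to 3′. Capitals mark matches, on either strand, to any of 6 short motifs: TGATGNAA (the core of the C/EBP-ATF element to which Atf4 binds), CACGTG (the E-box), GGGCGG (the GC box), CCAAT (a box bound by the factor NF-Y), TATAAA (the TATA box) and TGACNNNGC (the core of the antioxidant element). The Phgdh window lies at chr3:98339920-98340219, and the 2 annotated start windows of Psat1 at chr19:15925010-15925309 and chr19:15924573-15924872.
Phgdh: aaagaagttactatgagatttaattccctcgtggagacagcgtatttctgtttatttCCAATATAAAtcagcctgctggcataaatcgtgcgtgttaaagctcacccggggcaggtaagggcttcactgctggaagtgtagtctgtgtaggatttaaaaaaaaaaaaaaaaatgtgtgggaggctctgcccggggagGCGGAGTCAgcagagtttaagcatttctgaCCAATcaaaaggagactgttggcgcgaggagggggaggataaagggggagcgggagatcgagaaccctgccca
Psat1 window 1: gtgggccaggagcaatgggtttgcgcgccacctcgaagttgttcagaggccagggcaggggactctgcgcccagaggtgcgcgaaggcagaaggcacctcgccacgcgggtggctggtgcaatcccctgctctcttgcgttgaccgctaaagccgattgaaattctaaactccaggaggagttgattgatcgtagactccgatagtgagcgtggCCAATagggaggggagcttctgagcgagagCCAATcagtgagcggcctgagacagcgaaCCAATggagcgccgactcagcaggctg
Psat1 window 2: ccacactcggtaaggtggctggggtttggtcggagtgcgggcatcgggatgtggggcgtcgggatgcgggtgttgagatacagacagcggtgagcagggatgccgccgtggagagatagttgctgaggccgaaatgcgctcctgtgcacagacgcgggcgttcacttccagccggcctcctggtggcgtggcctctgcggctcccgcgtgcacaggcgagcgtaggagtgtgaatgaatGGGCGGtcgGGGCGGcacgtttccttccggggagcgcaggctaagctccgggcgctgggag

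CCAAT was the only 1 of these motifs found for both genes. It occurred 2 times in the Phgdh window, at bases 58 to 62 and 228 to 232 counted from the 5′ end, and 3 times in the first Psat1 window, at bases 215 to 219, 245 to 249 and 274 to 278. At least 1 CCAAT is held by 37.4% of the 32851 promoter windows in the RefSeq table. TATAAA (13.6% of windows) matched the Phgdh window at bases 62 to 67, sharing its first base with the end of a CCAAT. TGACNNNGC (12.4% of windows) matched the Phgdh window once, as its reverse complement, at bases 198 to 206. GGGCGG (35.7% of windows) matched the second Psat1 window 2 times and neither of the others. TGATGNAA (3.97% of windows) and CACGTG (7.15%) were in none of the 3 windows, which says only that these letters are absent from these bases.

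Phgdh had intensities of 30.9, 25.2 and 37.0 on the arrays of mutant replicates 1, 2 and 3, against 41.9, 43.3 and 38.1 on those of wild-type replicates 1, 2 and 3. Every mutant value lay below every wild-type value, but mutant replicate 3 and wild-type replicate 3 were only 1.03 intensity units apart. The mutant mean was 31.0 ± 5.94 and the wild-type mean 41.1 ± 2.68 (SD, n = 3 each). The log2 difference, mutant minus wild-type, was -0.42 ± 0.21 (SE), which makes the mutant level 25.3% lower. In bulk bone, fewer cells of a type that makes the transcript and less transcript per cell cannot be told apart.

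Psat1 had intensities of 31.0, 36.7 and 39.3 on the arrays of mutant replicates 1, 2 and 3, against 42.4, 44.7 and 42.9 on those of wild-type replicates 1, 2 and 3. Here too no mutant array reached the wild-type range, with a gap of 3.02 units between the groups. The mutant mean was 35.7 ± 4.24 and the wild-type mean 43.3 ± 1.21 (SD, n = 3 each), a log2 difference of -0.29 ± 0.19 (SE), or 18.0% lower. Mutant arrays all lay below wild-type arrays in 3.89% of the 8997 probe sets, among which Phgdh and Psat1 fall by choice. In neither gene did the filter by level, which kept probe sets that reached 20 units on at least 3 arrays, set the order of the groups, since the lowest value of Phgdh was 25.2 and that of Psat1 31.0.

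The genes shared their extremes only in part. Mutant replicate 3 was the highest mutant array for both, and wild-type replicate 2 the highest wild-type array for both. The lowest array was mutant replicate 2 for Phgdh and mutant replicate 1 for Psat1. In both genes the mutant arrays were spread more widely than the wild-type arrays, with an SD of 5.94 against 2.68 units for Phgdh and of 4.24 against 1.21 units for Psat1. With 3 arrays per group, this difference in spread was not tested.

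**Figure D1:**
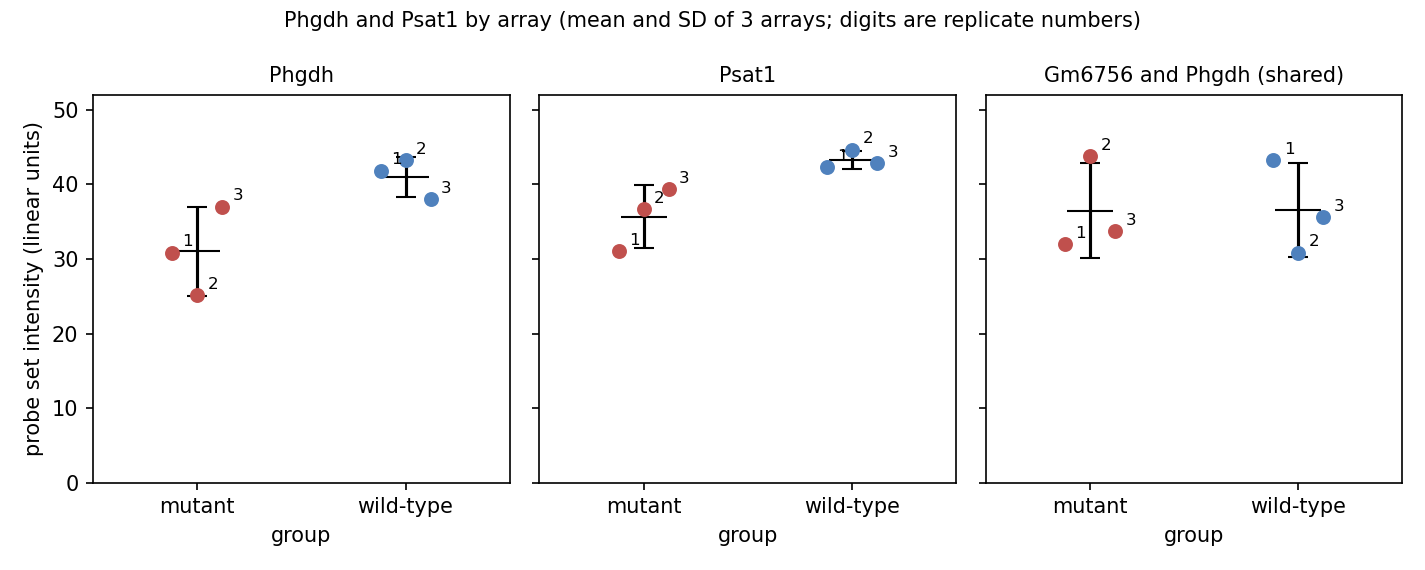
Intensity (linear units, vertical axis from 0) of the probe sets of Phgdh, of Psat1 and of the probe set annotated to both Gm6756 and Phgdh, by group. Points are single arrays numbered by replicate, and bars are the mean and SD of 3 arrays. Mutant points lie below all wild-type points in the Phgdh and Psat1 panels and overlap with them in the shared panel.

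A further probe set matched Phgdh transcripts but was annotated also to Gm6756, a transcribed pseudogene, and so was not counted as a member. It listed the same 3 transcript accessions as the Phgdh probe set. Its intensities were 31.9, 43.8 and 33.7 on mutant replicates 1, 2 and 3, against 43.3, 30.9 and 35.6 on wild-type replicates 1, 2 and 3. The groups overlapped fully, at 36.5 ± 6.41 in the mutants and 36.6 ± 6.27 in the wild-type (SD, n = 3 each), with a log2 difference of -0.0036 ± 0.22 (SE; limma adjusted p = 0.996). The 2 probe sets disagreed most on mutant replicate 2, the lowest array for the Phgdh probe set and the highest for the shared one. How much of the shared signal came from each transcript cannot be read from these values.

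Array brightness differed little between the groups except on 1 array. Array medians were 45.5 to 48.4 units on 5 arrays and 39.6 on wild-type replicate 1, whose median probe set stood at -0.30 on the log2 scale from the other arrays. Since that array was dim and belonged to the brighter group for both genes, centring each array on its median widened the differences, to -0.48 for Phgdh and -0.34 for Psat1. Quantile normalization gave -0.49 and -0.35. Without wild-type replicate 1 the differences were -0.41 for Phgdh and -0.30 for Psat1. Groups did not overlap on the log2, centred or quantile-normalised scale, with a gap for Phgdh of 0.040, 0.034 and 0.037 and for Psat1 of 0.11, 0.12 and 0.12 log2 units.

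Single mutant arrays set much of the size. For Phgdh the log2 difference was -0.28 when mutant replicate 2 was left out, and -0.56 when mutant replicate 3 was. For Psat1 it was -0.19 when mutant replicate 1 was left out, and -0.36 when mutant replicate 3 was. The mutant mean was the lower one under all 11 settings tried for each gene, a direction that the choice of the genes had largely fixed.

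**Figure D2:**
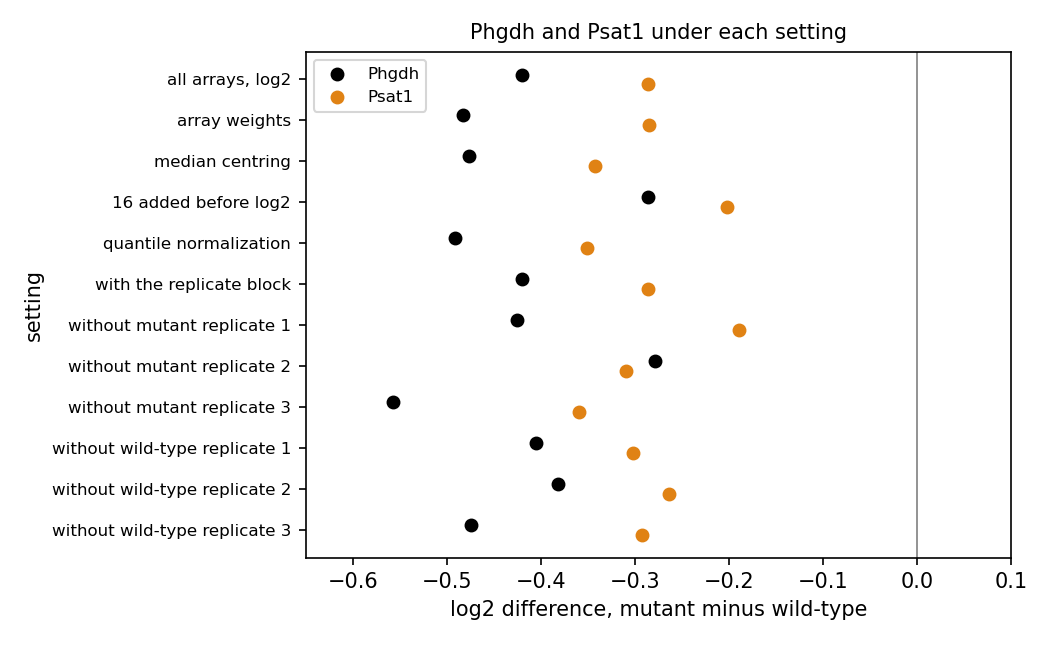
Log2 difference, mutant minus wild-type (horizontal axis), of Phgdh and Psat1 with all arrays and under 11 other settings (vertical axis). All points lie below 0, between -0.56 and -0.28 for Phgdh and between -0.36 and -0.19 for Psat1.

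Over the whole table limma called 0 probe sets at an adjusted p of 0.05, which is 0% higher and 0% lower in the mutants, with 669 at an unadjusted p under 0.05. Of these, 516 (5.74% of the table) were higher and 153 (1.7%) lower in the mutants. The median log2 difference of all probe sets was 0.045, and 43.3% had a lower mutant mean. Counts for the metabolic genes below are set against these shares. The median of all probe sets itself turned negative under some settings. Median centring gave -0.012, quantile normalization -0.019 and weighting of arrays -0.027, while dropping the dim wild-type replicate 1 gave -0.033. Elsewhere it stayed positive, from 0.024 when mutant replicate 3 was dropped to 0.11 when wild-type replicate 3 was. List medians under a setting are to be read beside these values. No gene named below passed, and all their adjusted p-values are from limma.

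Genes of glycine and folate metabolism had log2 differences between -0.26 and 0.24. Of 23 such genes 11 were measured, 3 with a higher and 8 with a lower mutant mean, and the median log2 difference was -0.0087. None passed in either direction, and at an unadjusted p under 0.05 there were also 0. The difference furthest below 0 was that of Mthfd2, a mitochondrial dehydrogenase of the folate cycle (-0.26 ± 0.21 SE, adjusted p = 0.769). Mthfd2 was at 30.1, 24.3 and 29.1 units in mutant replicates 1, 2 and 3, against 27.7, 35.2 and 37.1 in wild-type replicates 1, 2 and 3, so that only the dim wild-type array fell within the mutant range. Fpgs, which retains folates in the cell by adding glutamates, was the 1 gene of the list with all mutant arrays lower (25.9, 27.4 and 26.6 units in the mutants against 30.5, 28.2 and 32.7 in the wild-type). Its log2 difference was -0.19 ± 0.18 (SE, adjusted p = 0.79). That is 1 of 11 genes, beside 3.89% over the table.

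Shmt2, the mitochondrial enzyme that splits serine into glycine and a folate-bound carbon, had 40.3, 37.3 and 44.0 units in the mutants against 32.2, 42.4 and 49.2 in the wild-type. The groups overlapped, with a log2 difference of -0.0087 ± 0.22 (SE, adjusted p = 0.993). Mthfd1, the cytosolic folate enzyme with 3 activities, and Mthfd1l, the mitochondrial formate ligase, were each at -0.09. Atic and Gart, which use formyl folate in purine synthesis, were at -0.18 and -0.0033, and Aldh1l2, a mitochondrial formyl folate dehydrogenase, at -0.0068. On the other side of 0 lay Slc19a1, the reduced folate carrier (0.055), Slc25a32, the mitochondrial folate carrier (0.21), and Dld, the dehydrogenase shared by glycine cleavage and pyruvate oxidation (0.24). The median of these 11 genes depended on single arrays, at -0.19 without wild-type replicate 1 and 0.098 without wild-type replicate 3. Of the 11 genes, 6 turned sign under at least 1 setting. Shmt2 (0.13), Mthfd1l (0.015), Aldh1l2 (0.23) and Gart (0.21) did so without wild-type replicate 3, Slc25a32 without wild-type replicate 1 (-0.077), and Slc19a1 after centring and quantile normalization.

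Transporters of serine, glycine and other neutral amino acids, counted together with the sideroflexins and the membrane proteins of the Serinc family, lay mostly on the other side. Of 19 genes 14 were measured, 11 with a higher and 3 with a lower mutant mean, at a median log2 difference of 0.30. None passed, while 3 were higher (5.74% over the table) and 1 lower (1.7%) at an unadjusted p under 0.05. Slc1a5, a sodium-dependent carrier of glutamine and serine, had 110.5, 93.5 and 63.0 units in the mutants against 46.3, 68.4 and 37.9 in the wild-type. Its log2 difference was 0.81 ± 0.29 (SE, adjusted p = 0.638), with mutant replicate 3 inside the wild-type range. Serinc5 was at 0.76 ± 0.30 (adjusted p = 0.667), with means of 288.1 in the mutants and 168.4 in the wild-type.

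Serinc2 was the 1 measured member of the Serinc family with a lower mutant mean. It had 35.6, 48.5 and 56.3 units in the mutants against 73.2, 73.4 and 71.6 in the wild-type, so all mutant arrays were lower (log2 difference -0.66 ± 0.22 SE, adjusted p = 0.613). No other gene of the list had groups without overlap. That is 1 of 14 genes, beside 3.89% lower and 9.18% higher on all mutant arrays over the table. The median of the list was 0.12 without wild-type replicate 1, and the listed genes stood highest on mutant replicate 1.

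**Figure D3:**
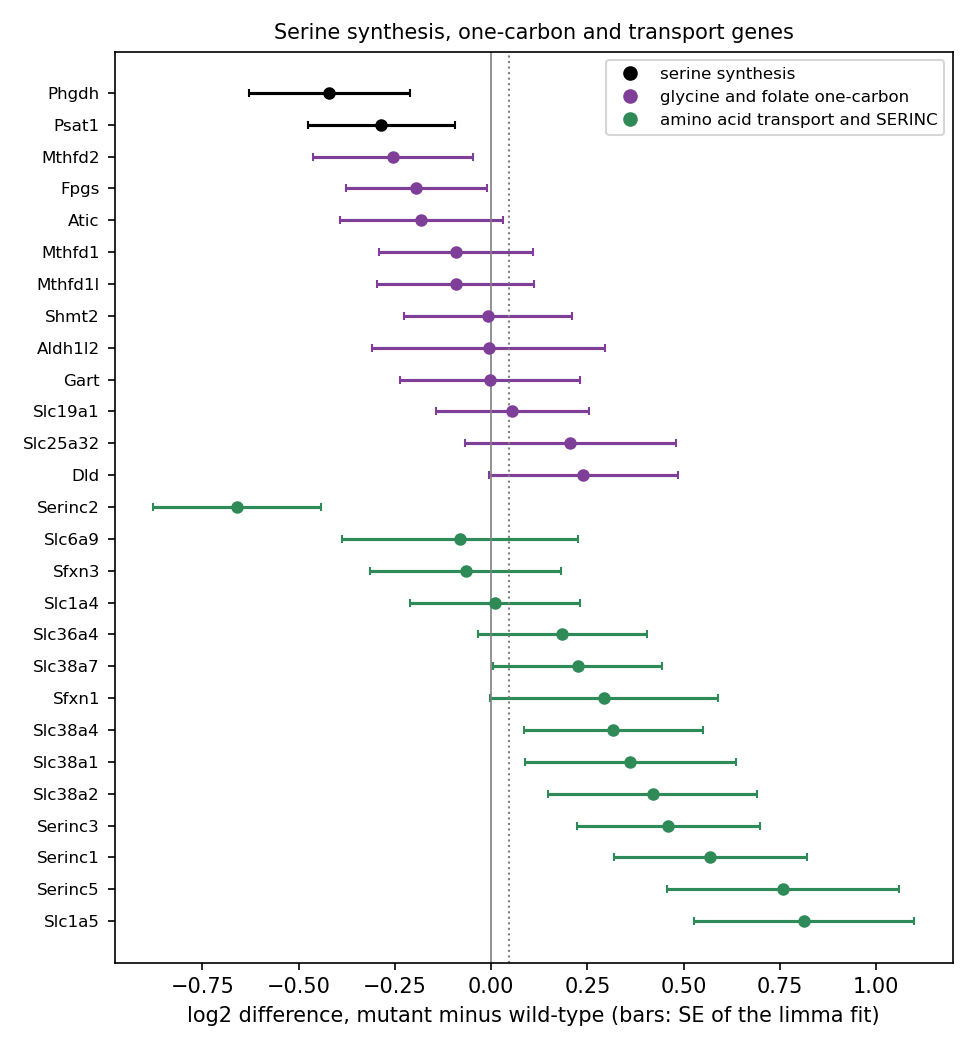
Log2 difference, mutant minus wild-type (horizontal axis), with the SE of the limma fit as bars, for Phgdh and Psat1 (black), 11 genes of glycine and folate metabolism (purple) and 14 genes of amino acid transport and the Serinc family (green). The dotted line is the median of all probe sets, 0.045. The folate genes lie between -0.26 and 0.24, and the transport genes between -0.66 and 0.81.

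Genes of amino acid stress, a list built around Atf4, differed in both directions. The list is not one of Atf4 targets alone, since it also holds Atf4 and Eif2ak3, a kinase gene that acts upstream of it. Of 38 genes 23 were measured, 15 with a higher and 8 with a lower mutant mean, at a median of 0.075. None passed in either direction. The 3 of smallest p all had higher mutant means: Vldlr, a lipoprotein receptor (0.88 ± 0.33 SE, adjusted p = 0.657), Iars, an isoleucyl-tRNA synthetase (0.51 ± 0.27, adjusted p = 0.708), and Nupr1, a stress-induced nuclear protein (0.36 ± 0.23, adjusted p = 0.727). All mutant arrays were higher in 2 of the 23 genes (9.18% over the table) and lower in 0. Atf4 itself, added after its values were seen, had 37.9, 31.1 and 33.1 units in the mutants against 22.2, 44.4 and 32.8 in the wild-type. Its wild-type arrays spanned all the mutant values (0.092 ± 0.26 SE, adjusted p = 0.943), and its sign turned without wild-type replicate 1 (-0.17). Asns, the asparagine synthetase, also added, was at -0.12 ± 0.21 (adjusted p = 0.889). Array weights turned the sign of the list median (-0.092), as did leaving out wild-type replicate 1 (-0.11).

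Glycolytic and glutamate genes were read as transcripts of the routes that supply carbon and nitrogen to the pathway. The supply itself was not measured. Of 18 glycolytic genes 15 were measured, 8 with a higher and 7 with a lower mutant mean, at a median of 0.015 (-0.31 without wild-type replicate 1). None passed, and the members of smallest p were the hexokinase genes Hk2 (0.43 ± 0.30 SE) and Hk1 (0.23 ± 0.19) and the glucose transporter gene Slc2a1 (0.38 ± 0.28). Without wild-type replicate 1 they were at 0.12, 0.15 and 0.17. Hk1 was the 1 of the 15 genes with all mutant arrays higher, beside 9.18% over the table. Glutamate and proline genes were divided into 5 higher and 5 lower of 10 measured, with none past the threshold. Glul, which turns glutamate into glutamine, had the largest difference of this list. It was at 425.8, 372.0 and 118.0 units in the mutants against 67.9, 106.0 and 84.3 in the wild-type, with all mutant arrays higher (1.65 ± 0.44, adjusted p = 0.559). Without mutant replicate 3, its lowest mutant array, limma called it (2.23, adjusted p = 0.019), the 1 call that any setting made among the genes of these lists. Aldh18a1, which starts proline synthesis from glutamate, was at -0.69 ± 0.30 (adjusted p = 0.671), and Got1, the cytosolic aspartate aminotransferase, at 0.47 ± 0.24 (adjusted p = 0.708). Glul and Got1 were the 2 of these 10 genes with all mutant arrays higher, beside 9.18% over the table, and 0 had all mutant arrays lower.

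Genes of nucleotide synthesis and of other uses of serine and glycine gave no call either. The purine and thymidylate list also holds pyrimidine and salvage genes, such as Cad and Tk1, that take up no folate-bound carbon unit. It had 6 higher and 7 lower means among 13 measured genes (median -0.047). Among them Tk1, the thymidine kinase of dividing cells, had 22.9, 22.8 and 21.2 units in the mutants against 27.7, 36.2 and 32.4 in the wild-type. All its mutant arrays were lower (-0.52 ± 0.19 SE, adjusted p = 0.661), and it was the 1 such gene of the 13, beside 3.89% over the table. Cad, the enzyme that starts pyrimidine synthesis, was at -0.58 ± 0.27 and Adss, an adenylosuccinate synthase, at 0.56 ± 0.26. Genes that put serine into sphingolipids, phosphatidylserine and tRNA, or glycine into creatine precursors, were divided into 3 higher and 3 lower of 6 measured (median -0.011). Gatm was at -0.30, Sars at 0.15 and Ptdss1 at -0.11. The 3 measured genes listed under the methionine cycle, not all of them enzymes of the cycle, were higher in mean. Ahcyl1 was at 0.63, Mtr at 0.46 and Mat2b at 0.43, and wild-type replicate 1 was their lowest array. Without it they were at 0.25, 0.21 and 0.28, and with array weights at 0.37, 0.14 and 0.24. Mat2b was the 1 of these 3 genes with all mutant arrays higher, beside 9.18% over the table.

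Collagen chains, the glycine-rich products of these tissues, differed by -0.22 to 0.37 on the log2 scale. All 16 listed chains were measured, 11 with a higher and 5 with a lower mutant mean (median 0.085, or -0.097 without wild-type replicate 1), and none passed. The chains of smallest p were Col10a1 of hypertrophic cartilage (0.37 ± 0.26 SE, adjusted p = 0.746), Col9a1 of cartilage (0.32 ± 0.23, adjusted p = 0.751) and Col5a1 (-0.22 ± 0.21, adjusted p = 0.796).

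Cell division genes were low on some of the arrays on which Phgdh and Psat1 were low. Of 16 measured genes 15 had a lower mutant mean (43.3% over the table), at a median of -0.35. None passed, and 2 were lower at an unadjusted p under 0.05 (1.7% over the table). Array weights put the median at -0.56, and it was -0.54 when mutant replicate 3 was left out and -0.20 when wild-type replicate 3 was. Rrm2, a ribonucleotide reductase subunit, had 18.8, 13.0 and 23.9 units in the mutants against 28.3, 25.3 and 49.9 in the wild-type, all mutant arrays being lower (-0.87 ± 0.31 SE, adjusted p = 0.644). It was the 1 such gene of the 16, beside 3.89% over the table. Mcm2 of the replicative helicase was at -0.72 ± 0.30 and the mitotic kinase gene Aurkb at -0.51 ± 0.27. On each array, after subtracting the shift of the whole array, the list median lay at -0.32, -0.38 and 0.10 on mutant replicates 1 to 3 against 0.35, -0.0019 and 0.44 on wild-type replicates 1 to 3. Phgdh lay on the same scale at -0.22, -0.50 and -0.014 against 0.49, 0.23 and 0.036, and Psat1 at -0.35, -0.10 and -0.072 against 0.36, 0.13 and 0.062. Wild-type replicate 3 was the array highest for cell division and the lowest wild-type array for both genes on this scale. The part of dividing cells in the levels of Phgdh and Psat1 was not tested.

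**Figure D4:**
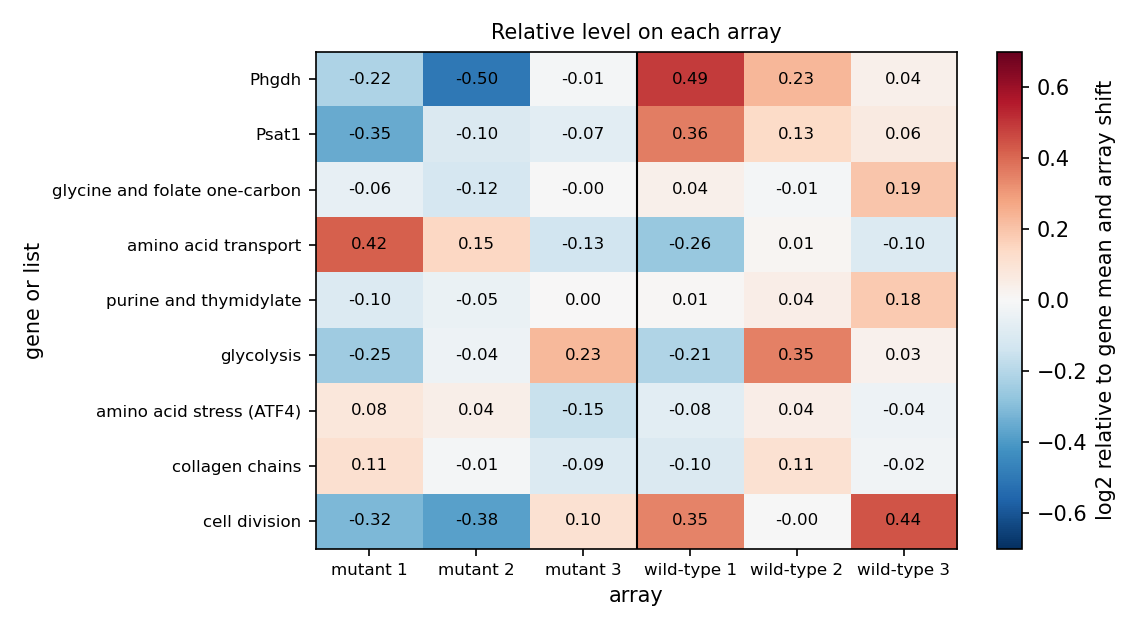
Level of Phgdh, of Psat1 and of 7 gene lists (rows; the median over the genes of a list) on each array (columns), in log2 units relative to the mean of each gene over the 6 arrays and to the shift of the whole array. Phgdh and Psat1 are below 0 on all mutant arrays and above 0 on all wild-type arrays, while cell division is above 0 on mutant replicate 3.

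Markers of other tissues also varied between the arrays. Bone and cartilage markers were present, with 7 of 11 and 12 of 12 measured, Col1a1 at 7479 units in the mutants and 7303 in the wild-type, and Col2a1 at 3549 units in the mutants and 3415 in the wild-type. Bglap, Spp1 and Runx2 were not analysed here. The 6 measured epidermal markers of 11 summed to 51.3 to 460.4 units on the mutant arrays and to 47.3 to 1798 on the wild-type arrays. On the relative scale used above their median was -1.57, 0.80 and -1.90 log2 units on mutant replicates 1 to 3 against 2.87, 2.17 and -2.13 on wild-type replicates 1 to 3. Summed skeletal muscle markers (13 of 14 measured) overlapped between the groups, at 6259 to 8093 in the mutants and 4706 to 9729 in the wild-type, and Tnni2 was at 153.1 ± 39.2 and 174.6 ± 78.6 (SD, n = 3 each). Summed osteoclast markers (6 of 10) did not overlap, at 1312 to 1862 in the mutants and 688.8 to 1172 in the wild-type. All mutant arrays were higher in 3 of these 6 genes, beside 9.18% over the table. Those were Acp5, Ctsk and Mmp9, the brightest of the 6, which carried most of the sum. The other genes overlapped between the groups, and Nfatc1 had a lower mutant mean (log2 difference -0.12). The part of these tissues in the levels of Phgdh and Psat1 was not tested beyond these values.

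The genes with the array pattern most like that of Phgdh and Psat1 were ranked by Pearson correlation over the 6 arrays with the mean of the centred log2 values of both. Among 5622 genes 70 reached 0.9. Genes lower on all mutant arrays rank high by construction, so the ranking is a description only. The 8 highest, at 0.96 to 0.98, were Adamts17, a secreted metalloprotease, Mea1, Yif1b, a membrane protein of vesicle traffic, Slc35c2, a sugar nucleotide carrier family member, Cuedc2, Naxe, which repairs damaged NADH and NADPH, Tpsab1, a mast cell tryptase, and Fkbp2, a prolyl isomerase of the endoplasmic reticulum. In 6 of these all mutant arrays were lower. Fkbp2 had 39.2, 44.6 and 69.5 units in the mutants against 75.3, 99.0 and 88.4 in the wild-type, with mutant replicate 3 the highest mutant array, as it was for Phgdh and Psat1. Adamts17 had 77.5, 78.4 and 96.1 units in the mutants against 105.5, 102.3 and 96.3 in the wild-type, its groups nearly meeting in replicate 3 of each. No gene of the serine, folate or transport lists was among the 8.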

How the data were processed

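Total RNA was purified on RNeasy columns, amplified, and labelled with biotin for single-colour Affymetrix whole-transcript arrays, per the labels' protocols. The deposited values were probe set intensities on a linear scale. How they were background-corrected, summarised and scaled is not given in the sources used here. Every probe set reached 20 units on at least 3 arrays, which shows a filter by level. Names came from the platform annotation of 2016, with 6398 probe sets carrying 1 symbol, 576 several and 2023 none, and genes of the lists were matched by Entrez identifier. The brightest probe set stood for a gene.

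Intensities were converted to log2 without further normalization. All 8997 probe sets were fitted with 2 group means by lmFit and eBayes (limma 3.58.1, R 4.3.3), two-sided, with Benjamini-Hochberg adjustment over all probe sets and a threshold of 0.05. Levels are means ± SD of 3 arrays. The number of arrays limits the precision. The members and the gene lists were chosen with earlier results of these data known. Named were Phgdh, Psat1, Tnni2, all measured glycine and folate genes, the 3 members of smallest p in each other metabolic or cell division list, and the 8 genes of most similar pattern. Col1a1 and Col2a1, the defining collagens of bone and cartilage, and Atf4 and Asns were named outside this rule. Alternatives were quantile normalization, median centring, a replicate block, array weights, 16 units added before log2, leaving out the dimmest 25% of probe sets or each array in turn, an intensity trend with robust variances, and averaging the probe sets of a gene. In 20 simulated data sets with known changes, the procedure recovered 39.15% of 2-fold and 87.2% of 4-fold changes, and 4.46% of its calls were false. A gene that did not pass may therefore still differ. Tables were made with pandas 2.3.3 (Python 3.11.15) and plots with matplotlib 3.10.9.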

Additional observations from a re-analysis of the deposited data

How the results depend on the processing

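With 3 arrays per group and an unstated background correction, the differences of Phgdh and Psat1 carried SEs of 0.21 and 0.19 on the log2 scale. Their log2 differences stayed below 0 under all 11 settings, a direction that the choice of the genes had largely fixed. The differences moved by less than the spread between replicates. With each array left out in turn they ranged from -0.56 to -0.28 for Phgdh and from -0.36 to -0.19 for Psat1. They were -0.29 and -0.20 with 16 units added and -0.49 and -0.35 after quantile normalization. Limma called 0 probe sets with all arrays, 4 with array weights and 0 to 15 with each array left out, the 15 being without mutant replicate 3. Counts at an unadjusted p under 0.05 were 669 with all arrays, 1412 with array weights, and 322 and 393 without mutant replicates 1 and 2. List medians moved by more than the spread between replicates in 15 cases. With array weights these were glycine and folate genes (-0.21), purine and thymidylate genes (-0.21), amino acid stress genes (-0.092) and collagen chains (-0.049). Quantile normalization put the glycine and folate genes at -0.095, and leaving out the dimmest probe sets put purine and thymidylate genes at 0.036. With each array left out the medians ranged from -0.19 to 0.098 for glycine and folate genes, -0.13 to 0.15 for purine and thymidylate, -0.31 to 0.13 for glycolysis, -0.16 to 0.12 for glutamate and proline, -0.11 to 0.19 for amino acid stress, -0.097 to 0.17 for collagen chains, -0.54 to -0.20 for cell division and 0.25 to 0.62 for the methionine cycle. For amino acid transport they ranged from 0.12 to 0.44, and for other uses of serine from -0.11 to 0.088. The cause was not tested. The labels do not say whether replicate numbers mark littermates, so the numbers were not used as pairs. Deviations of same-numbered mutant and wild-type arrays correlated at -0.11, -0.026 and 0.32. Those of differently numbered arrays ranged from -0.42 to 0.34, so these values cannot decide whether the numbers mark littermates. A replicate block cannot change the differences in this balanced design (-0.42 for Phgdh and -0.29 for Psat1), and with it 0 probe sets were called.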
